A study of Sus scrofa with 24 samples.

Results

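Interferon-induced and antigen processing genes were followed in liver RNAseq data of 24 pigs, to see whether the lower IFITM3 level of Sustanon-treated pigs was shared by other genes of the same kind. The list named 55 genes, and a gene was taken when the deposited tables had a row with its symbol. This gave 30 genes of the 13463 in the tables, and all 30 were among the 8279 genes that passed the filter on low counts. The 30 genes hold 1 of 3 listed IFITM genes, 2 of 6 RNA sensors and RNA-binding proteins, 7 of 14 antiviral effectors, 5 of 5 genes of the ISG15 system, 2 of 7 genes of the TRIM and PARP9 group, 5 of 5 transcription factors, 1 of 2 guanylate-binding proteins, 5 of 5 immunoproteasome genes and 2 of 4 genes of peptide loading. No row under their symbol was used for the other 25: IFITM1, IFITM2, IFIT1, IFIT2, IFIT3, IFIT5, MX1, MX2, OAS1, OAS2, DDX58, IFIH1, DHX58, XAF1, PARP9, PARP12, PARP14, DTX3L, TRIM25, ZNFX1, GBP1, TAP2, TAPBP, SAMHD1 and LGALS3BP. Of these, 19 lie on chromosomes 10 to 18 in RefSeq for Sscrofa11.1. There only 1 of 4942 named RefSeq genes (0.0202%) matched a row by symbol or identifier, against 8738 of 8983 (97.3%) on chromosomes 1 to 9. Several of the best known interferon-induced genes are therefore not analysed here.

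Interferons are secreted when a cell senses viral nucleic acid, and they act through cell surface receptors and JAK kinases, which switch on a wide set of antiviral genes in the same cell and its neighbours. The same signals raise the immunoproteasome and the peptide transporter that feed major histocompatibility complex class I molecules with peptides. In liver both hepatocytes and resident macrophages respond in this way.

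Every pig gave 1 liver library, and the animals were hybrids of Large White, Landrace and Duroc. Sustanon is a mixture of testosterone esters and was injected at 4 mg/kg into 3 castrated boars (pigs 1, 2 and 3), 3 sows (4, 5 and 6) and 2 uncastrated boars (19 and 20). Myodin holds nandrolone laurate and was injected at 5 mg/kg into 2 castrated boars (8 and 9), 3 sows (10, 11 and 12) and 3 uncastrated boars (22, 23 and 24). The 8 controls were 3 castrated boars (13, 14 and 15), 3 sows (16, 17 and 18) and 2 uncastrated boars (25 and 27). Treated pigs had 5 intramuscular injections 4 days apart and were slaughtered 4 days after the last. According to the study's methods the controls were kept in a separate room and each group in its own pens, so that treatment and housing cannot be told apart.

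Libraries held between 9267780 and 14017276 counted reads. The hepatocyte markers were high in every library, with ALB, the gene of serum albumin, at a median of 114916 TPM, reads scaled to transcript length and to library size. The Y-linked gene KDM5D had 0 counts in the control library labelled castrated boar 15, and 35 and 95 counts in the control libraries labelled sow 16 and sow 18. It had 0 counts in the other 7 libraries labelled sow and between 36 and 82 in the other 14 labelled boar. These 3 libraries go against their labelled sex. KDM5D cannot show castration, so whether libraries 16 and 18 came from pigs without testes was not tested. Sows and castrated boars were joined by their labels as pigs without testes, and the comparisons between treatments over all pigs, and those within pigs without testes and within controls, are also given without these 3 libraries. As this is bulk tissue, fewer cells of a type and less RNA per cell cannot be told apart.

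A few pigs stood far above the rest for most of these genes, and that sets how the group comparisons read. When log2 CPM (counts scaled to library size) of every gene was turned into a z-score over the 24 pigs, the mean over the 30 genes was 2.52 in Myodin uncastrated boar 24, 1.38 in Myodin uncastrated boar 23, 1.17 in control sow 18 and 1.11 in control castrated boar 13. The next highest pig, Myodin castrated boar 8, was at 0.38. Pig 24 had the highest value of all pigs for 25 of the 30 genes, and for 15 of the 30 these 4 pigs were above all 20 others. The 4 pigs were picked by their mean over these same 30 genes, so that their place above the others is partly built in. These counts were also not taken over all tested genes, so they do not show a trait particular to the 30. No Sustanon-treated pig was among the 4 pigs, and the mean z-score was -0.45 ± 0.33 in Sustanon, 0.12 ± 0.75 in control and 0.33 ± 1.09 in Myodin (SD, n = 8 each). The spread between pigs was also smaller under Sustanon, with a median SD of log2 CPM over the 30 genes of 0.445, against 0.666 in control and 0.921 in Myodin, and for 27 of 30 genes the SD was smaller in Sustanon than in control, against 51.8% of all tested genes, whose median SD was 0.268 in Sustanon, 0.271 in control and 0.319 in Myodin. The 3 treatment comparisons over all pigs are given with and without these 4 pigs. So is that of Sustanon with control in pigs without testes. This setting was chosen after their values were seen. As the choice used the values of the same 30 genes, smaller differences without these pigs are partly built in.

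**Figure D1:**
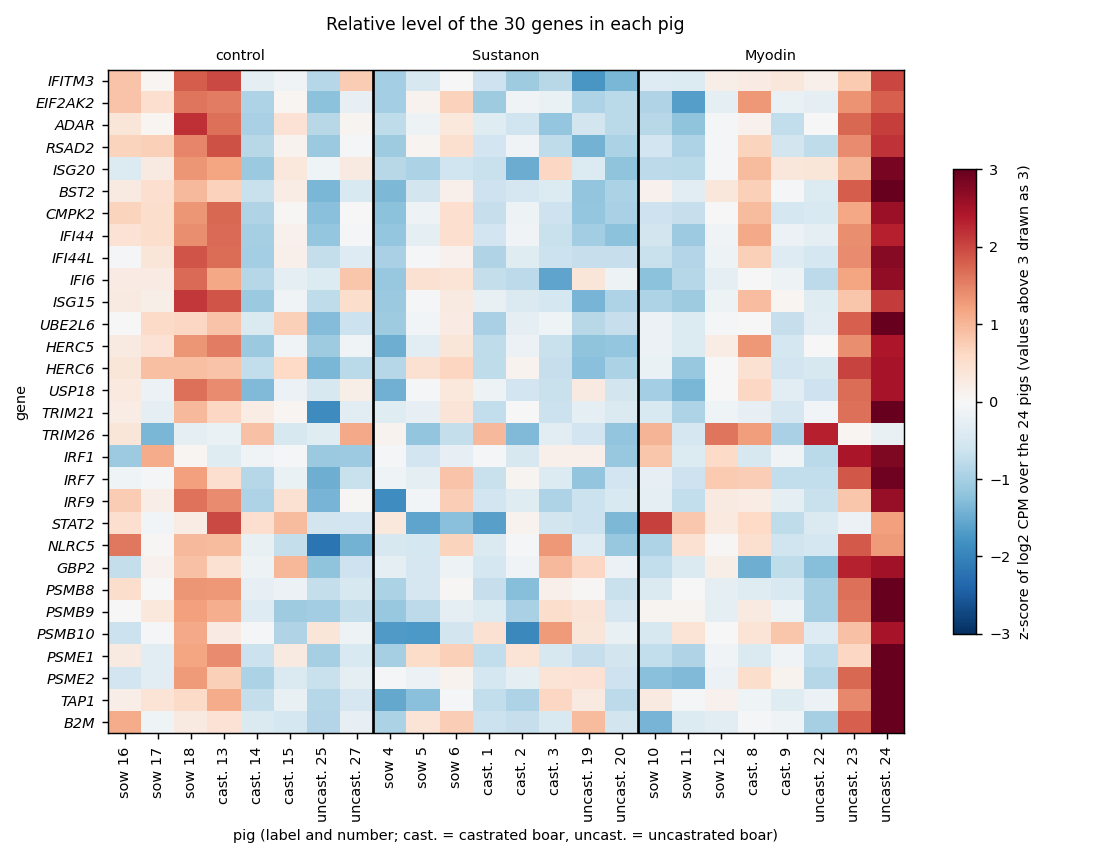
Z-score of log2 CPM over the 24 pigs (colour, values above 3 drawn as 3) for the 30 genes (rows) in each pig (columns, grouped by treatment and labelled by sex and castration). The 4 red columns are control sow 18, control castrated boar 13 and Myodin uncastrated boars 23 and 24, with mean z-scores of 1.17, 1.11, 1.38 and 2.52, and no column under Sustanon reaches 0.38.

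Pigs 23 and 24 also differed in their cell type markers. They ranked first and second of 24 for the summed TPM of 7 macrophage and Kupffer cell markers (2439 and 2233), where Sustanon pigs ranged from 1111 to 1595 and controls from 1192 to 1527. They also held the 2 highest sums of 7 T and NK cell markers (113 and 99.5), although CD3G, which defines T cells, had a median of 0 TPM over all pigs. The hepatocyte marker sum was lowest in these 2 pigs (112903 and 92166), as was the red blood cell sum (1395 and 490). Pigs 13 and 18 ranked 11 and 16 for the macrophage sum and 6 and 3 for the T and NK cell sum. For the hepatocyte sum they ranked 13 and 21 from the highest. The 4 pigs were thus not alike in the macrophage sum. In the T and NK cell sum pig 18 (64.8) was level with Sustanon uncastrated boar 19 (64.3) and control sow 17 (63.8), well below pigs 23 and 24. In the hepatocyte sum pig 18 was at 120015, and Myodin sow 10, at 114425, was nearer to pigs 23 and 24. The part of cell composition in the values of these 4 pigs was not tested.

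IFITM3, a small membrane protein that keeps enveloped viruses from fusing with endosomes, was the gene with the clearest difference. It lies at chr2:128658-129736 (RefSeq, Sscrofa11.1), next to relatives of near-identical sequence, and how reads shared between them were counted is not given in the sources used here, so that its level is uncertain to that extent. IFITM3 ranged from 101 to 415 TPM in Sustanon with a median of 203, from 236 to 2476 TPM in control with a median of 643, and from 287 to 2159 TPM in Myodin with a median of 509. By TPM all 8 Sustanon pigs were below the control median and 5 of them were below every control (4 by CPM), while 5 of 8 controls were above every Sustanon pig. In the edgeR fit of counts its level fell 4.21-fold under Sustanon (log2 fold change -2.07, SE 0.48, 95% interval -3.07 to -1.08, adjusted p = 0.0161).

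The difference of IFITM3 held when any 1 of the 24 pigs was left out, with log2 fold changes of -2.28 to -1.73 and adjusted p of 0.0072 to 0.0401. Without pigs 13, 18, 23 and 24 it was smaller and still passed, at -1.22 (adjusted p = 0.0267). Without the 3 libraries that go against their labelled sex it was -1.91 and no longer passed (adjusted p = 0.116), in a fit in which 0 of all genes passed. Against Myodin, IFITM3 was lower under Sustanon by an estimate of -1.74 (SE 0.48, adjusted p = 0.0734), which did not pass with all pigs and passed without Myodin uncastrated boar 23 (adjusted p = 0.0408). Between Myodin and control the estimate was -0.33 (SE 0.47, adjusted p = 0.943). Sustanon and Myodin were compared with the same control libraries, so the first and the last of these comparisons are not independent.

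**Figure D2:**
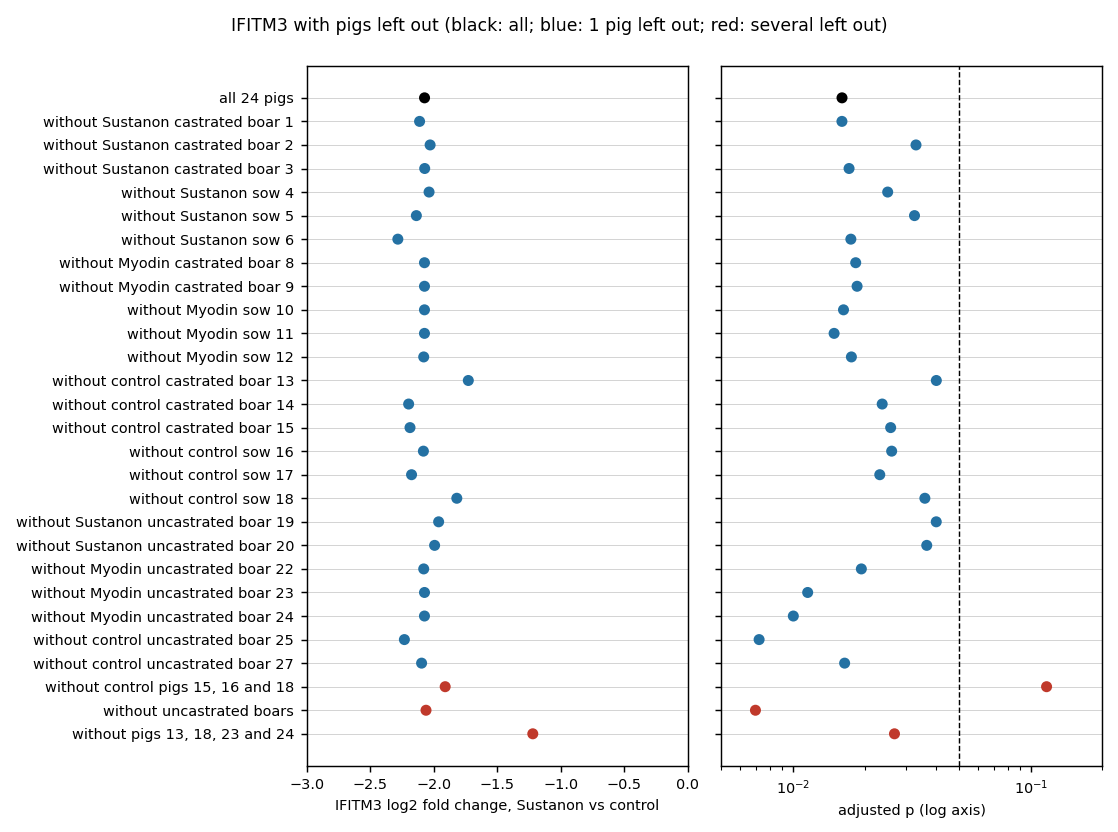
IFITM3 log2 fold change of Sustanon against control (left) and its adjusted p on a log axis (right, dashed line at 0.05) for all 24 pigs (black), with 1 pig left out (blue) and with several left out (red). The blue points sit between -2.28 and -1.73 and left of the dashed line, and the red point to the right of it, at 0.116, is the fit without control pigs 15, 16 and 18.

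Of the 30 genes in the comparison of Sustanon with control, IFITM3 was the 1 that passed, and it was lower. Its fall was the reason to follow these genes, so its own call does not speak to the others. Of the other 29, 0 passed. Over all tested genes 1.68% passed as lower and 3.39% as higher. At an unadjusted p under 0.05, 9 of the other 29 were lower and 0 higher, against 8.83% of all tested genes that were lower at this level. With IFITM3 the count was 10 of the 30. The estimate, here always a log2 fold change, was below 0 for 28 of 30, with a median of -0.45, where the median over all tested genes was -0.01. The count of 10 depended on single pigs and on the setting. It was 19 without uncastrated boars (9.91% of all tested genes) and 15 with only the 2 groups fitted (9.48%). It was 14 without Myodin uncastrated boar 24 (9.49%) and 13 without control uncastrated boar 25 (9.75%). It was 2 without control castrated boar 13 (7.37%) and 6 without Sustanon castrated boar 1 or 3 (11.5% and 9.82%). It was 4 without control sow 18 (8.62%), Sustanon sow 4 (8.06%) or Sustanon uncastrated boar 19 or 20 (7.11% and 7.38%). Without pigs 13, 18, 23 and 24 it was 1 (7.98% of all tested genes), which was IFITM3, so that 0 of the other 29 were lower at this level. In that fit 21 estimates were below 0, with a median of -0.16. These pigs were picked for their high mean over the same 30 genes, and pigs 13 and 18 are controls. The lower count is thus partly built in and cannot show whether the fall was shared. Without the 3 libraries that go against their labelled sex it was 3 (6.22%), with 25 below 0 and a median of -0.29. A second gene, ISG15, passed beside IFITM3 without pig 24 (adjusted p = 0.0388).

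Among the antiviral effectors, RSAD2 had the largest estimate and IFI6 the highest level. RSAD2, the enzyme viperin that makes a chain-terminating nucleotide, ranged from 2.57 to 17.7 TPM in Sustanon (median 6.03), from 4.10 to 87.5 in control (median 16) and from 4.56 to 98 in Myodin (median 8.32). Its log2 fold change of Sustanon against control was -1.77 (SE 0.69, adjusted p = 0.145). IFI6, a small protein of mitochondria and endoplasmic reticulum, ranged from 216 to 1230 TPM in Sustanon (median 621), from 358 to 4230 in control (median 1029) and from 254 to 8692 in Myodin (median 682), with an estimate of -1.05 (SE 0.65, adjusted p = 0.407). The groups overlapped for both genes, with the highest values in pigs 13, 18, 23 and 24. The other 5 effectors had estimates between -1.21 for ISG20, an RNA exonuclease, and -0.58 for BST2, the tetherin that holds budding viruses at the cell surface, and none of the 7 passed.

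Every gene of the ISG15 system had an estimate below 0 and none passed. ISG15 is a ubiquitin-like protein, UBE2L6 the enzyme that carries it, HERC5 and HERC6 the ligases and USP18 the protease that removes it. ISG15 ranged from 30.7 to 200 TPM in Sustanon (median 89.8), from 36.9 to 1874 in control (median 188) and from 45.2 to 1531 in Myodin (median 141), so that 1 control was close to the lowest Sustanon pig. Its estimate, -2.41 (SE 0.79, adjusted p = 0.0745), was larger in size than that of IFITM3, with a wider error. UBE2L6 ranged from 6.4 to 16.1 TPM in Sustanon (median 10.4) and from 5.71 to 25.7 in control (median 15.5), with an estimate of -0.62 (SE 0.50, adjusted p = 0.559). HERC5, USP18 and HERC6 were at -0.97, -0.83 and -0.45.

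**Figure D3:**
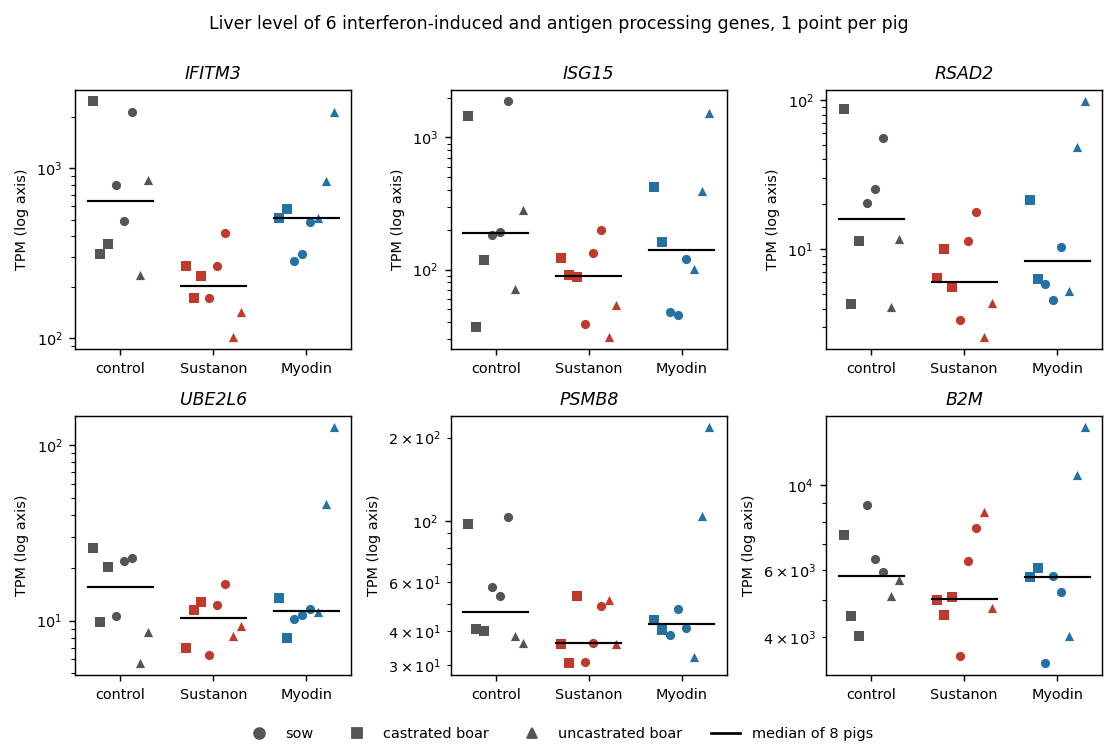
Liver level in TPM (log axis) of IFITM3, ISG15, RSAD2, UBE2L6, PSMB8 and B2M, 1 point per pig, with the median of each treatment group as a bar. The Sustanon pigs sit at the lower end for IFITM3, between 101 and 415 TPM, while for B2M, between 3564 and 8507 TPM, they overlap the controls almost fully, and Myodin uncastrated boar 24 is at or near the top of each panel.

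None of the RNA-binding proteins or TRIM ligases passed between Sustanon and control, and all had estimates below 0. EIF2AK2, the kinase PKR that halts translation on double-stranded RNA, ranged from 11.8 to 24.8 TPM in Sustanon and from 11.9 to 40.8 in control, with an estimate of -0.50 (SE 0.28, adjusted p = 0.356). ADAR, which edits double-stranded RNA, was at -0.37. TRIM21, a cytosolic antibody receptor, ranged from 10.1 to 14.7 TPM in Sustanon and from 9.37 to 16.2 in control, with an estimate of -0.12 (SE 0.19, adjusted p = 0.806). TRIM26 ranged from 49.4 to 76.6 and from 52.1 to 79.2 TPM in the same groups, with an estimate of -0.11 (SE 0.11, adjusted p = 0.638).

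Of the transcription factors, IRF9 and STAT2 act together downstream of the type I interferon receptor. IRF9 ranged from 28.9 to 75 TPM in Sustanon (median 52.9) and from 41.1 to 120 in control (median 67.6), with an estimate of -0.46 (SE 0.25, adjusted p = 0.317). STAT2 ranged from 70.1 to 92.3 TPM in Sustanon (median 85.2) and from 84.5 to 120 in control (median 92.2). By TPM 7 of 8 Sustanon pigs were below its control median and 4 were below every control (8 and 5 by CPM), but the estimate was small, -0.20 (SE 0.08, adjusted p = 0.169). STAT2 was also the steadiest gene, with its highest CPM only 1.52 times the lowest over the 24 pigs, where the ratio was 60.6 for ISG15 and 24.3 for IFITM3. IRF7, which amplifies interferon production, NLRC5, the activator of class I genes, and IRF1 were at -0.14, -0.08 and 0.00.

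The antigen processing genes among the 30 showed no difference between Sustanon and control that passed. PSMB8, a catalytic subunit of the immunoproteasome, ranged from 30.5 to 53.4 TPM in Sustanon (median 36.0) and from 36.1 to 103 in control (median 46.9), with an estimate of -0.54 (SE 0.36, adjusted p = 0.441). The other immunoproteasome genes lay between -0.35 for PSMB9 and 0.01 for PSME2, and the most abundant of them, the proteasome activator subunit PSME1 (253 to 358 TPM in Sustanon, 264 to 461 in control), was at -0.09 (SE 0.14, adjusted p = 0.794). TAP1, a chain of the transporter that brings peptides into the endoplasmic reticulum, ranged from 8.49 to 25.3 TPM in Sustanon and from 12 to 31.4 in control, with an estimate of -0.34 (SE 0.30, adjusted p = 0.598). B2M, the light chain of class I molecules and the most abundant of the 30 genes, ranged from 3564 to 8507 TPM in Sustanon and from 4024 to 8894 in control, with an estimate of -0.04 (SE 0.28, adjusted p = 0.966). GBP2, a GTPase that attacks vacuoles of pathogens, was at -0.02 (SE 0.25, adjusted p = 0.984), with 6.50 to 11.9 TPM in Sustanon and 5.79 to 12.5 in control. GBP1 and TAP2 were matched to rows without a symbol through their identifier alone and were at -0.01 and -0.21. Signs changed between settings: without pigs 13, 18, 23 and 24 the estimates of B2M, GBP2, IRF7, NLRC5, PSMB9, PSME1 and TRIM21 were above 0.

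**Figure D4:**
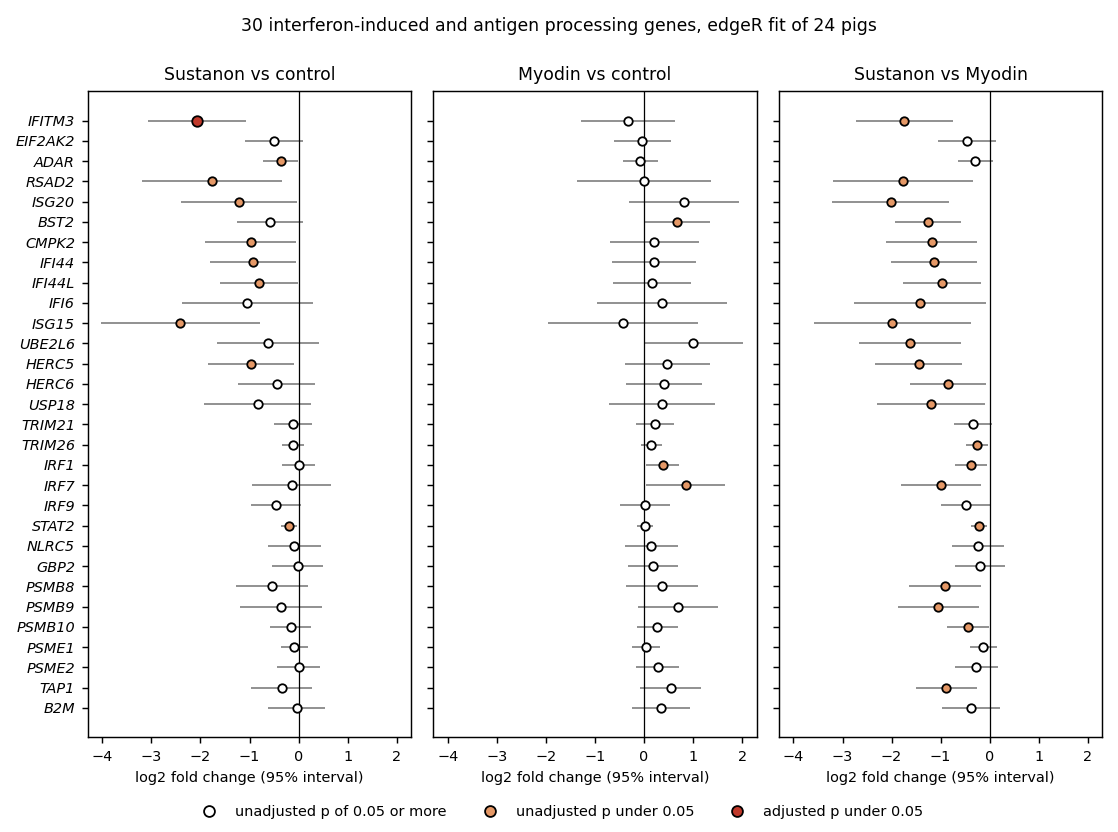
Log2 fold change with its 95% interval for the 30 genes in Sustanon against control, Myodin against control and Sustanon against Myodin, in 1 edgeR fit of 24 pigs (white, unadjusted p of 0.05 or more; orange, unadjusted p under 0.05; red, adjusted p under 0.05). The red point is IFITM3 at -2.07 in the left panel, and the medians of the 3 panels are -0.45, 0.25 and -0.90.

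Myodin against control gave 0 of 30 genes past the adjusted threshold by edgeR, as it did over all tested genes (0%), and 0 by DESeq2. At an unadjusted p under 0.05, 3 genes were higher, BST2, IRF1 and IRF7, and 0 lower, against 4.4% of all tested genes that were higher. The median estimate was 0.25. It was -0.04 without Myodin uncastrated boar 24, -0.03 without pigs 13, 18, 23 and 24 and -0.45 without all uncastrated boars, where 11 genes were lower at an unadjusted p under 0.05, against 5.72% of all tested genes in that fit. Its sign thus changed without Myodin uncastrated boar 24 alone, as it did without all uncastrated boars. The 3 unadjusted calls fell to 0 without Myodin uncastrated boar 23 or 24 (3.67% and 4.2% of all tested genes higher) and without control sow 16 (3.75%). They also fell to 0 without control uncastrated boar 25 or 27 (5.34% and 4.91%), and to 1 without control castrated boar 14 (3.69%). They rose to 5 without control castrated boar 13 (3.84%), control sow 18 (4.77%) or Myodin uncastrated boar 22 (5.54%). Without pigs 15, 16 and 18, 2 were higher at that level (2.43% of all tested genes) and 2 of 30 estimates were below 0, against 5 with all pigs.

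All 30 estimates were below 0 when Sustanon was compared with Myodin, with a median of -0.90. By edgeR 0 of 30 passed, against 0.411% of all tested genes that passed as lower, and 21 were lower at an unadjusted p under 0.05, against 9.22%. DESeq2 called 5 of the 30, BST2, HERC5, IFITM3, ISG20 and UBE2L6, and 276 of all tested genes, where edgeR called 55. Without pigs 15, 16 and 18 edgeR called 0 of the 30, with 21 lower at an unadjusted p under 0.05 (8.99% of all tested genes). The comparison leaned on Myodin uncastrated boar 24, without which 6 genes were lower at an unadjusted p under 0.05 (9.23% of all tested genes) and the median was -0.39. Without pigs 13, 18, 23 and 24 the median was -0.14 and 22 estimates were below 0. IFITM3 then passed with a smaller estimate (-1.03, adjusted p = 0.0431), in a fit in which 720 of all tested genes passed. In that fit 6 genes were lower at an unadjusted p under 0.05 (11.9% of all tested genes). Without the uncastrated boars the median was -0.12 and 2 genes were lower at that level (9.82% of all tested genes). Leaving out 1 pig gave between 0 and 3 passing genes, with BST2, IFITM3 and ISG20 without Myodin uncastrated boar 23, BST2 and ISG20 without Sustanon castrated boar 3, and BST2 without Sustanon castrated boar 1 or Myodin uncastrated boar 22. Over all tested genes 541, 231, 250 and 51 passed in these fits, in the same order, against 55 with all pigs. Markers moved with this comparison: the macrophage gene C1QC (-0.59) and the cytotoxic cell gene NKG7 (-0.82) were lower in Sustanon than in Myodin (adjusted p = 0.0399 each), and their part in the values of the 30 genes was not tested. The macrophage sum was 1111 to 1595 TPM in Sustanon and 1453 to 2439 in Myodin, the T and NK cell sum 31.5 to 64.3 and 33.4 to 113. The sum of 3 stellate cell markers was 39.9 to 106 TPM in Sustanon (median 57.3) and 19.1 to 78.2 in Myodin (median 26.5). That of 2 bile duct markers was 8.93 to 22.8 in Sustanon, 7.5 to 13.5 in Myodin and 13.6 to 20.7 in control. The part of these sums was not tested.

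In pigs without testes, IFITM3 fell under Sustanon with a log2 fold change of -2.07 (SE 0.48, adjusted p = 0.0123), in a fit of 6 groups with 8754 genes. There Sustanon was given to 6 pigs with 173 to 415 TPM, and the 6 controls had 313 to 2476 TPM. It was the 1 of 30 genes that passed, and none of the others did, against 2.06% of all tested genes that passed as lower. All 30 estimates were below 0, with a median of -0.59. At an unadjusted p under 0.05, 14 genes were lower, 13 of them beside IFITM3, against 9.1%. The count of 14 was 4 without control castrated boar 13 or control sow 18 (7.56% and 8.56% of all tested genes) and 6 without Sustanon sow 4 (8.14%). The call of IFITM3 stayed with any 1 of the 12 pigs left out. It was lost without pigs 13, 18, 23 and 24 (-1.03, adjusted p = 0.102) and without pigs 15, 16 and 18 (-2.03, adjusted p = 0.0624), each with 4 genes lower at an unadjusted p under 0.05 (8.48% and 6.97% of all tested genes).

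Myodin in pigs without testes gave no passing gene among the 30 by edgeR or by DESeq2, against 0.0228% of all tested genes that passed as lower. The estimates were below 0 for 27 of 30, with a median of -0.44, and 5 genes were lower at an unadjusted p under 0.05, against 4.62%. IFITM3 was at -1.26 (SE 0.50, adjusted p = 0.393), with 287 to 574 TPM in Myodin. The count of 5 was 1 without control castrated boar 13 or control sow 18 (4.26% and 5.12% of all tested genes) and 3 without Myodin sow 10 or 11 (3.98% and 3.62%). It was 11 without control castrated boar 14 or Myodin castrated boar 8 (4.5% and 5.26%), and 2 without pigs 15, 16 and 18 (2.42%). These controls were also the controls of the Sustanon comparison above.

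In uncastrated boars the picture for Sustanon rests on 2 pigs a group. IFITM3 was 101 and 143 TPM with Sustanon and 236 and 858 TPM in the controls, with an estimate of -2.17 (SE 0.84, adjusted p = 0.366). It was -0.85 without control uncastrated boar 27 and -2.83 without control uncastrated boar 25. By edgeR 0 of 30 genes passed, as over all tested genes (0%), and 0 by DESeq2. IFITM3 was the 1 gene lower at an unadjusted p under 0.05, against 4.5%. Leaving out any 1 of these boars leaves 1 pig in its group, so whether this call is stable cannot be tested. The median of the 30 estimates was -0.03, with 16 below 0 and 14 above. The difference between the Sustanon effect with and without testes was tested as an interaction. For IFITM3 it was -0.10 (SE 0.93, 95% interval -2.02 to 1.82, adjusted p = 0.991), an interval too wide to show that the effects were alike. None of the 30 passed in that test by edgeR, against 0.0114% of all tested genes that passed as higher. The estimate was above 0 for 28 of 30, against 49.99% of all tested genes. At an unadjusted p under 0.05, 0 were higher, against 3.64%, and 2 were higher without Sustanon castrated boar 3 (3.56% of all tested genes).

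Of the 3 Myodin-treated uncastrated boars, boar 24 had the highest CPM of all pigs for 25 of the 30 genes, a count not taken over all tested genes. UBE2L6 was 11.2, 46.3 and 126 TPM in Myodin uncastrated boars 22, 23 and 24, 5.71 and 8.63 TPM in control uncastrated boars 25 and 27, and 8.13 and 9.32 TPM in Sustanon uncastrated boars 19 and 20. Boars 23 and 24 were above every other pig, while boar 22 was within the range of the pigs without testes. IFITM3 was 507, 837 and 2159 TPM in the same 3 boars. All 30 estimates of Myodin against control were above 0 in uncastrated boars, with a median of 1.75, and 24 were higher at an unadjusted p under 0.05, against 5.72% of all tested genes. None passed by edgeR, as over all tested genes (0%), while DESeq2 called 10 of the 30 and 44 of all tested genes. Without Myodin uncastrated boar 24 the median was 0.90 and 11 genes were higher at an unadjusted p under 0.05 (5.28% of all tested genes), as many as without control uncastrated boar 25 (3.91%). Without Myodin uncastrated boar 22, 14 of the 30 passed and 145 of all tested genes.

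**Figure D5:**
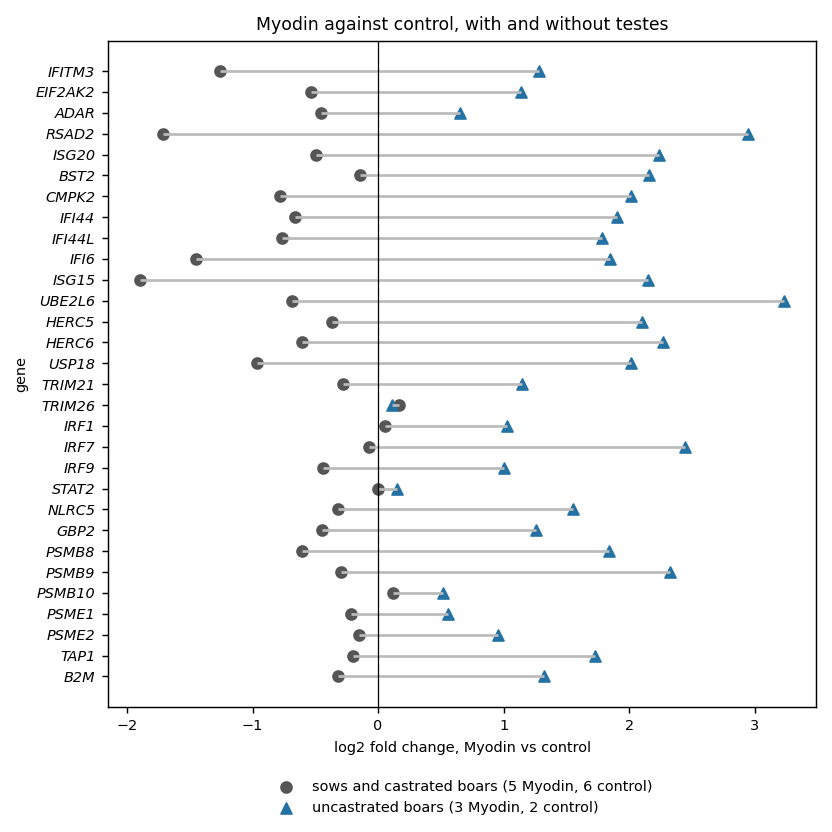
Log2 fold change of Myodin against control for the 30 genes in sows and castrated boars (circles, 5 Myodin and 6 control pigs) and in uncastrated boars (triangles, 3 Myodin and 2 control pigs). The circles lie below 0 for 27 of 30 genes with a median of -0.44 and the triangles above 0 for 30 of 30 with a median of 1.75.

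The difference between these Myodin effects, with testes minus without, was also tested as an interaction. UBE2L6 passed (3.92, SE 0.78, adjusted p = 0.0466), the 1 of 30 genes to do so, and the only gene of all tested genes (0.0114%) to pass as higher. HERC6 (2.87) and TRIM21 (1.43) were next, at an adjusted p of 0.0575 each. At an unadjusted p under 0.05, 27 of 30 were higher, against 7.01%, and the median was 2.37. The exceptions were STAT2, TRIM26 and PSMB10, the third catalytic subunit of the immunoproteasome. The call of UBE2L6 was not stable. It was lost when any 1 of pigs 9, 10, 11, 13, 15, 17, 18, 23, 24, 25 or 27 was left out, with estimates of 2.72 to 4.43 and adjusted p of 0.000784 to 0.325 over the 16 left-out pigs. The count of passing genes was 0 in those fits, 2 without control castrated boar 14 and 20 without Myodin uncastrated boar 22, and DESeq2 called 12. Over all tested genes 13 and 192 passed in these 2 fits and 92 by DESeq2, against 8 with all pigs by edgeR. The 27 genes higher at an unadjusted p under 0.05 became 20 without Myodin uncastrated boar 24 (6.65% of all tested genes) and 18 without control uncastrated boar 25 (5.04%). Myodin uncastrated boars 23 and 24 had the highest macrophage and T and NK cell marker sums, whose part was not tested.

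Among controls, the 2 uncastrated boars had lower estimates than the 6 pigs without testes for 28 of 30 genes, with a median of -0.85. None passed by edgeR, against 0.765% of all tested genes that passed as lower. NLRC5 came nearest (-1.28, SE 0.36, adjusted p = 0.0833) and passed by DESeq2. At an unadjusted p under 0.05, 7 genes were lower, against 7.8%. That count was 3 without control sow 18 (7.88% of all tested genes), 4 without control castrated boar 13 (7.11%) and 13 without control castrated boar 14 (7.52%). It was 3 without pigs 15, 16 and 18 (6.86%). IFITM3 was 236 and 858 TPM in the 2 boars and its estimate was -1.07 (SE 0.70, adjusted p = 0.504). It was -0.39 without control uncastrated boar 25, -0.68 without control castrated boar 13 and -2.38 without control uncastrated boar 27.

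The level of IFITM3 was also set against that of each other gene between pigs. It was measured on log2 CPM after the mean of each treatment group was subtracted. Over all 24 pigs 25 of 29 relations had an unadjusted permutation p under 0.05, against 9.92% of all tested genes, and the median r was 0.75. Because 4 pigs stood apart, the values that follow are over the other 20, a setting chosen after the values were seen. Of 29 relations, 16 had an unadjusted permutation p under 0.05, against 9.6% of the relations of IFITM3 with all other tested genes in the same pigs (10000 permutations). The r was positive for 25 of 29 with a median of 0.49, against 50.4% and 0.00 over all tested genes. ISG15 was closest, with Pearson's r of 0.82 and Spearman's rho of 0.85 (permutation p = 1e-05 for each, the smallest that 100000 permutations can give), followed by RSAD2 (r = 0.74, rho = 0.72, permutation p = 0.00017 and 0.00041), CMPK2 (0.73 and 0.71, permutation p = 0.00016 and 0.00053) and IFI44 (0.71 and 0.71, permutation p = 0.0003 and 0.00075). At the other end were STAT2 (r = -0.31, rho = -0.42, permutation p = 0.178 and 0.0665), GBP2 (-0.19 and -0.27, permutation p = 0.437 and 0.243), PSMB10 (-0.15 and -0.15, permutation p = 0.533 and 0.523) and IRF1 (-0.13 and -0.11, permutation p = 0.572 and 0.653), the 4 genes with a negative r. The antigen processing gene PSME1 was at 0.62 and 0.60 (permutation p = 0.00395 and 0.0058) and PSMB9 at 0.03 and 0.03 (permutation p = 0.911 and 0.886), while the antiviral gene ISG20 was at 0.28 and 0.34 (permutation p = 0.24 and 0.139). Over all pairs of the 30 genes the median r was 0.38 in these 20 pigs, with 359 of 435 pairs positive, a description in which all genes share the same libraries.

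Other genes of the pathway were taken from lists that hold none of the 30. Of 10 tested receptor and signalling genes, JAK1, the kinase bound to the interferon receptor, rose under Sustanon against control (0.39, SE 0.11, adjusted p = 0.0368), and 0 fell. Of 6 tested class I heavy chains and loading partners, ERAP1, which trims peptides for class I molecules, fell (-0.50, SE 0.14, adjusted p = 0.0312), and in pigs without testes it fell as well (-0.62, adjusted p = 0.0117). Over all tested genes 3.39% passed as higher and 1.68% as lower in Sustanon against control. In pigs without testes 2.06% passed as lower. Of 15 tested other interferon-induced genes 0 passed, 13 were lower (51.9% of all tested genes) and 3 were lower at an unadjusted p under 0.05 (8.83%), while MOV10, an RNA helicase, passed as lower in pigs without testes (-0.52, adjusted p = 0.0455). None of 8 sensing adaptors and kinases, 6 class II genes and 10 constitutive proteasome subunits passed in Sustanon against control, with medians of -0.10, -0.07 and -0.04. TLR8, an endosomal RNA sensor of myeloid cells, was lower in Sustanon than in Myodin (-0.88, adjusted p = 0.0399). These calls were not firm: leaving out 1 pig removed that of JAK1 in 10 of 24 fits, that of ERAP1 in 9 of 24 in all pigs and 0 of 12 in pigs without testes, that of MOV10 in 10 of 12, and those of TLR8, C1QC and NKG7 in 8, 11 and 10 of 24. Without pigs 15, 16 and 18 none of these calls passed, with adjusted p of 0.18 for JAK1, 0.209 for ERAP1 (0.0814 in pigs without testes), 0.243 for MOV10 and 0.0585 for TLR8, C1QC and NKG7. Interferon genes themselves were near 0: 4 of 8 had a row, none passed the filter on low counts, their sum was between 0 and 1.65 TPM, and IFNB1 was listed at 0 in every pig.

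Cell type markers did not pass in Sustanon against control. The macrophage sum of 1111 to 1595 TPM in Sustanon overlapped the 1192 to 1527 TPM of controls, the T and NK cell sum of 31.5 to 64.3 TPM overlapped 31.3 to 64.8, and the hepatocyte sum of 144775 to 215308 TPM overlapped 120015 to 183177. All 6 hepatocyte markers had estimates above 0 (0.04 to 0.44), 5 of 7 macrophage markers and 6 of 6 tested T and NK cell markers had estimates below 0, with medians of -0.05 and -0.19. Their part in the fall of IFITM3 was not tested.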

How the data were processed

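The authors made stranded poly-A libraries (TruSeq), sequenced them as paired ends and trimmed the reads. The submitters' processing notes name FastQC, STAR 2.5, DESeq2 and the build Sscrofa11.1. The authors deposited raw counts of reads per gene for 13463 genes, of which 3779 have no symbol. The same libraries were deposited by the authors as log2(TPM + 1), with a pseudocount of 1, and were converted back to TPM, which sum to 989763 to 994408 per library. The members and all gene lists were chosen with earlier results of these data known.

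Tests on counts used the two-sided quasi-likelihood test of edgeR 4.0.16 (R 4.3.3) after filterByExpr and TMM scaling, in 1 fit of the 3 treatment groups and 1 fit of 6 groups (treatment by testes). A gene passed at a Benjamini-Hochberg adjusted p under 0.05 over all genes tested. DESeq2, the tool of the study, was run as an alternative (1.42.0). Intervals are 95% from the quasi-likelihood fit, and log2 CPM used a prior count of 2. Each library is 1 pig, so p-values measure the spread between pigs. Where leaving out an uncastrated boar left 1 pig in its group of the fit of 6 groups, that spread came from the other groups only. Genes named with values are IFITM3, members that passed in a comparison, the most abundant member of each role and the one with the largest estimate in Sustanon against control, and passing genes of the pathway lists; members at the ends of ranges are named as well. Others named beside a count were named after their values were seen. Alternatives were leaving out pigs, a sex covariate, only the 2 groups compared, RLE normalization, no count filter, limma 3.58.1 on log2(TPM + 1) and log2(TPM + 0.1), and a fold threshold. Correlations were computed in Python 3.11.15 with numpy 2.4.6 and 100000 permutations. The scripts were tested on simulated data.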

Additional observations from a re-analysis of the deposited data

Results flagged for a closer look

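The value of 1 pig stood far from the other 7 of its treatment group in 3 of 45 Dixon tests on log2(CPM + 1) (critical ratio 0.526 for 8 pigs). Chance alone flags about 1 in 20 groups. IRF9 was 135 CPM in Myodin uncastrated boar 24, and the nearest pig, boar 23, had 70.1 CPM. PSME1 was 343 CPM in the same boar, with boar 23 next at 209 CPM. TRIM21 was 13.5 CPM in control uncastrated boar 25, below control uncastrated boar 27 at 20.2 CPM.

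The effect of Myodin on UBE2L6 differed between pigs with and without testes, with a log2 difference of 3.92 that passed in the test of the difference itself. It no longer passed when any 1 of 11 of the 16 pigs compared was left out.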

How the results depend on the processing

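IFITM3 under Sustanon against control kept its direction in all settings. Without control pigs 15, 16 and 18 it was -1.91 and 0 of 30 genes passed, and 0 passed in pigs without testes. The count of 1, with 420 of all genes, became 3 without uncastrated boars (BST2, IFITM3 and PSMB8; 549 of all genes), 2 by DESeq2 (637) and 2 with only the 2 groups fitted (557; IFITM3 and ISG15 in both), and lay between 1 and 2 with 1 pig left out. In pigs without testes it was 1 with all pigs (475), 2 by DESeq2 (631), 0 without pigs 13, 18, 23 and 24 (410), and 1 with any pig left out. For Sustanon against Myodin the count of 0 (55 of all genes) became 5 by DESeq2 (276), 1 without those 4 pigs (720), and 0 to 3 with 1 pig left out. The 3 passed without Myodin uncastrated boar 23, where 541 of all genes passed. DESeq2 gave 12 for the Myodin interaction (92 of all genes), 10 for Myodin in uncastrated boars (44) and 1 for the controls (253). By edgeR the first 2 counts were 1 and 0 with all pigs, and 0 to 20 and 0 to 14 with 1 pig left out. The 20 and the 14 were without Myodin uncastrated boar 22, where 192 and 145 of all genes passed. IFITM3 correlated with 25 genes at an unadjusted p under 0.05 over 24 pigs (9.92% of all tested genes), 25 with the mean of each treatment by testes group subtracted (11.7%), 23 without pigs 13 and 24 (4.22%) and 16 without the 4 (9.6%). Unadjusted calls were fewer by limma on log2(TPM + 1), at 5 of 30 lower for Sustanon against control (7.39% of all genes) and 5 against Myodin (4.75%), where the median was -0.52. The sex covariate left 13 of 30 against Myodin (10.9%). The cause of these changes was not tested.

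Some estimates of Sustanon against control changed sign, most of them near 0 but also PSMB9 at -0.35. Without control castrated boar 15, GBP2 was 0.062 and PSME2 -0.015. Without control pigs 15, 16 and 18, B2M was 0.086, GBP2 0.12, IRF1 -0.016, IRF7 0.14 and NLRC5 0.17. With the sex covariate IRF1 was -0.0012 and PSME2 -0.0036, without uncastrated boars -0.069 and -0.049, and with no count filter -0.015 and -0.010. By limma on log2(TPM + 1) GBP2 was 9.1e-05, and on log2(TPM + 0.1) GBP2 was 0.0021 and NLRC5 0.0033. Without pigs 13, 18, 23 and 24, B2M was 0.035, GBP2 0.11, IRF7 0.26, NLRC5 0.11, PSMB9 0.096, PSME1 0.036 and TRIM21 0.0055. With 1 pig left out, GBP2 ranged from -0.11 to 0.062, IRF1 from -0.045 to 0.086, B2M from -0.14 to 0.072, PSME2 from -0.040 to 0.10, NLRC5 from -0.23 to 0.073 and IRF7 from -0.33 to 0.087, and IFITM3 under Myodin from -0.87 to 0.012.

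No paired analysis was possible because the replicate numbers are pig numbers, and no number occurs in more than 1 group. The lowest count of a member was 8, for ISG20 in 1 pig, and the groups of uncastrated boars hold 2 or 3 pigs, which limits what their comparisons can show.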
